A study of Mus musculus with 6 samples.

Results

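The genes described here mark the cells of blood vessels in the embryonic mouse eye: the endothelium that lines them, the sprouting tip cells and the pericytes around them. They were taken from a list of 31 gene symbols, and all 31 were found on the array among 18193 genes with a symbol, through 54 probe sets of 45101. Of these genes, 23 are endothelial, 3 belong to sprouting and 5 to pericytes. Each gene is described by its brightest probe set, the one with the highest mean over the 6 arrays. The study compared the posterior eye of embryos lacking Oa1 (now named Gpr143), a receptor of pigment cell organelles, with that of wild-type (WT) embryos at embryonic day 15.5. There were 3 Oa1-/- and 3 WT arrays, and each array was hybridized with RNA pooled from the eyes of 6 embryos of 1 dam. The labels record no treatment and leave out the strain, the sex of the embryos and how much of Oa1 was deleted.

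Vessels reach the embryonic mouse eye along several routes. The hyaloid vessels cross the vitreous and wrap the lens, and the choroidal capillaries form in the mesenchyme next to the pigment epithelium. The retina itself is still without vessels before birth. Endothelial cells are joined by VE-cadherin and claudin 5, take signals through the Tie receptors, and are specified by transcription factors of the ETS and SOX families. Growing sprouts are led by tip cells, which secrete apelin and angiopoietin 2, while pericytes are recruited through the PDGF receptor beta. A posterior eye pool holds few vessels among many retinal cells, and in such bulk RNA fewer cells of a type and less RNA per cell cannot be told apart.

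The targeted gene followed the labels on all 6 arrays, while 3 arrays stood apart in other signals. The probe set for Gpr143 read 246 to 257 on the WT arrays and 6.02 to 39.1 on the Oa1-/- arrays. Every array had the same trimmed mean signal, and the highest of 27 bacterial control probe sets read between 22.1 and 39.3, which places the background. On WT replicate 3 the Y-linked genes Eif2s3y, Kdm5d and Uty read 9.26, 13.5 and 14.4, against at least 406, 377 and 189 on the other 5 arrays. That array also had the highest ratio of 3' to 5' control signal for Gapdh, 0.985 against 0.798 to 0.841. Oa1-/- replicate 1 had the highest 18S ribosomal RNA control signal, 6348 against 1476 to 2618 for the 3' probe set, and the lowest median signal, 93.6 against 108 to 129. On the first principal component of all probe sets kept, which held 46.0% of the variance, it scored 57.6 and the others −26.3 to 16.1. WT replicate 1 had the lowest median deviations from the mean of the 6 arrays for skeletal muscle genes (−1.24) and lens genes (−0.51), and the highest summed erythroid signal, 25990 against 5652 to 12484. Retinal and pigment epithelial genes were bright, with Atoh7 at 13788 ± 364 and Pmel at 9407 ± 1512 in WT (SD, n = 3). The lens gene Cryaa read 19548 to 24690, and Krt12, a keratin of the corneal epithelium, read 332 on WT replicate 1 and 1046 to 3203 on the other arrays, although per the labels the front of each eye was dissected away.

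The start sites of the member genes are shown first because 3 of the members, Erg, Fli1 and Ets1, are ETS factors, which bind DNA around a GGAA core, and several other members are widely used as endothelial markers. RefSeq promoter sequences (assembly GRCm38.p6) were matched by symbol for 15 of the 31 genes, with 20 start sites. The 250 bases before each start were searched on both strands for CAGGAAG or CCGGAAG as ETS motifs. A match was present before 7 of the 20 starts, in 6 genes, and before 17.0% of all 32851 starts in the table. The SOX motif ACAANG, the motif AGATAA of blood and endothelial zinc finger factors and the E-box CAGATG, which Tal1 complexes can bind, were found before 7, 2 and 3 of the 20, or 35.0%, 10.0% and 15.0%, against 36.3%, 9.99% and 14.4% of all starts. No motif overlapped another of the 4 kinds in these genes, and a match is only a description of the letters. The 7 windows of 100 bases that hold an ETS match are printed 5′ to 3′ on the strand of the gene, with the match in capitals:
Emcn, chr3:137340874-137340973 (plus strand): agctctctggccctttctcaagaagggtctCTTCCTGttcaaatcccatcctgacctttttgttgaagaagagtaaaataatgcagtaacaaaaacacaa
Robo4, chr9:37401872-37401971 (plus strand): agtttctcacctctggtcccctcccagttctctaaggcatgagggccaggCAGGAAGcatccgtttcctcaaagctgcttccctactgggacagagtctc
Egfl7, chr2:26580983-26581082 (plus strand): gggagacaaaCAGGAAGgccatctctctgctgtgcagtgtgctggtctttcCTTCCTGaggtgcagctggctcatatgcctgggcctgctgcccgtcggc
Egfl7, chr2:26583765-26583864 (plus strand): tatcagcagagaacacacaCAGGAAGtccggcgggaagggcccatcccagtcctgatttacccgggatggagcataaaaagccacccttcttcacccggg
Erg, chr16:95459349-95459448 (minus strand): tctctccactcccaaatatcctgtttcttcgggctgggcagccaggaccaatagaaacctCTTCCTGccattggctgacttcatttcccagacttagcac
Lyl1, chr8:84701245-84701344 (plus strand): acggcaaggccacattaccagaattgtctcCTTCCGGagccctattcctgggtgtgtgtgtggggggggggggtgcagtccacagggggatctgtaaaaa
Apln, chrX:48034897-48034996 (minus strand): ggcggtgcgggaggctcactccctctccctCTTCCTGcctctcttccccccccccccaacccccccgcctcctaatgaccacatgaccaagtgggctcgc
The first Egfl7 start holds 2 matches on opposite strands, at positions -90 to -84 and -49 to -43 from the start site.

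All 31 genes read above the highest bacterial control on each of the 6 arrays, and all 31 brightest probe sets passed the filter on low signal. None of the 31 differed between the genotypes past the threshold of an adjusted p below 0.05 in limma, where 0 of 27029 probe sets (0%) passed. The targeted gene Gpr143 did not pass it either, with a log2 change of −2.82 (adjusted p = 0.318 in limma). Missing this threshold is therefore no evidence that a gene is unchanged. The smallest adjusted p among the members was 0.985, shared by several of them. At an unadjusted p below 0.05 there was 1 member, Abcc9, against 4.11% of all probe sets kept (1.64% higher and 2.46% lower). The log2 change, Oa1-/- minus WT on log2(signal + 16), was positive for 18 genes and negative for 13, and positive for 47.4% of all probe sets kept. It ran from −0.32 (Tal1) to 0.55 (Angpt2), with a median of 0.05 over the members and −0.01 over all probe sets kept. The 95% confidence intervals of the members lay between −1.02 and 1.10, and 3 arrays per genotype do not narrow them further.

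**Figure D1:**
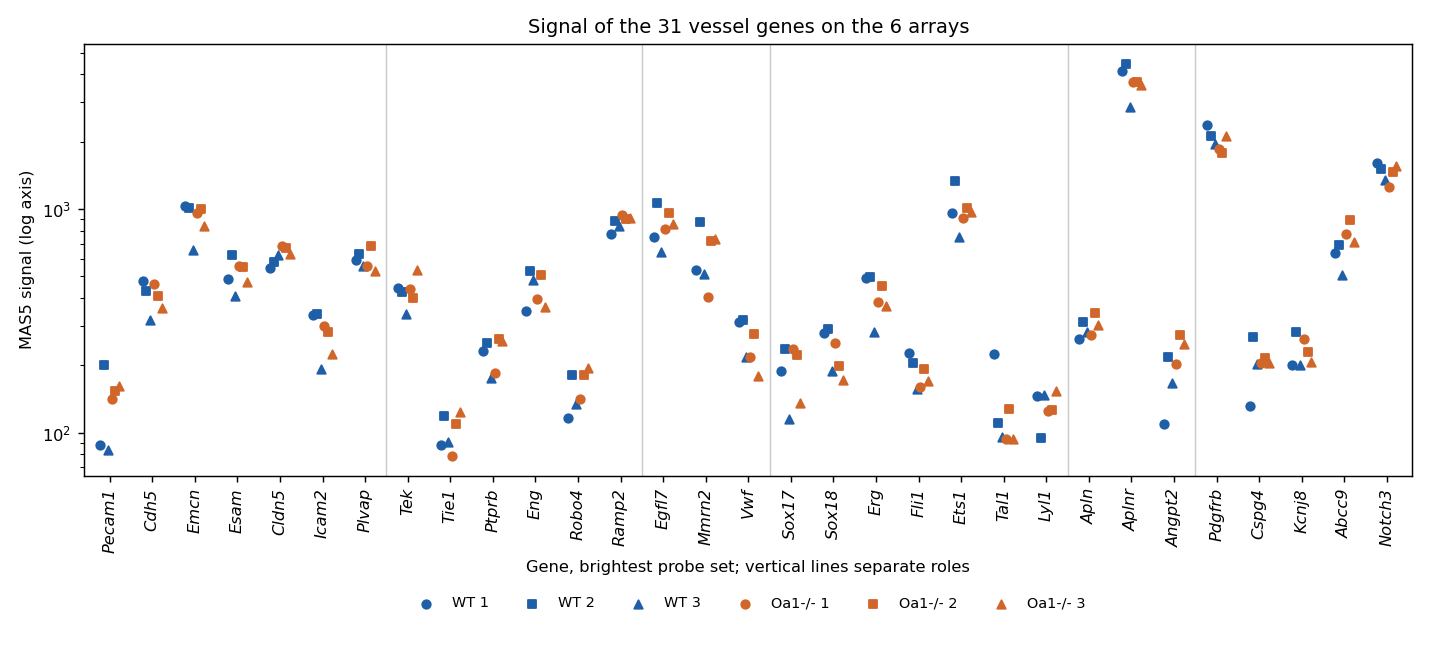
MAS5 signal (log axis) of the brightest probe set of each of the 31 genes on the 6 arrays, with 3 WT arrays in blue, 3 Oa1-/- arrays in orange and a marker shape for each replicate number. The genotypes overlap for 28 of the 31 genes, and the WT replicate 3 triangles are the lowest point for 15 of them.

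The groups did not overlap for 3 members, Cldn5, Ramp2 and Abcc9, all higher in Oa1-/-, while the groups did not overlap for 10.2% of all probe sets kept (4.92% higher and 5.31% lower). The share among the members lies near the 10.2% that counts both directions. It lies above the 4.92% that counts only higher probe sets, and the direction was not tested. Endothelial genes had a median log2 change of 0.05, sprouting genes one of 0.10 and pericyte genes one of 0.04. The endothelial and pericyte medians differed by 0.01. Taken on single arrays, the endothelial minus pericyte difference had an SD of 0.16 within a genotype. That SD describes single arrays and is not the error of the 0.01, which was not tested.

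Genes of endothelial junctions and surface gave 5 positive and 2 negative changes of 7, with a median log2 change of 0.07. Cldn5, claudin 5 of the tight junctions of endothelium, read 548, 580 and 621 on the WT arrays and 680, 671 and 631 on the Oa1-/- arrays. The 3 Oa1-/- values lay above the 3 WT values by a narrow margin. The log2 change was 0.18 (SE 0.10, unadjusted p = 0.124, adjusted p = 0.985 in limma), and an exact two-sided permutation test gave 0.1, below which 3 against 3 arrays cannot go. Pecam1, the adhesion molecule of endothelial contacts, had WT signals of 88.6, 200 and 83.6 and Oa1-/- signals of 142, 154 and 162. The WT arrays spread on both sides of the Oa1-/- arrays, whose values lay close together, and the log2 change of 0.36 had an SE of 0.30. Emcn, the sialomucin endomucin of capillaries and veins, had WT signals of 1029, 1013 and 655 and Oa1-/- signals of 961, 999 and 836, a log2 change of 0.08 (SE 0.18), with WT replicate 3 the lowest of the 6.

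The remaining surface genes had log2 changes between −0.07 and 0.07. Cdh5, encoding VE-cadherin, averaged 409 ± 82.3 over the WT arrays and 411 ± 49.2 over the Oa1-/- arrays (SD, n = 3 each), with a log2 change of 0.02 with a 95% interval from −0.38 to 0.42. Esam, an adhesion molecule of endothelial tight junctions, had a log2 change of 0.07 and Icam2, an adhesion molecule for leukocytes, one of −0.07. Plvap, which forms the diaphragms of fenestrated endothelium such as the choriocapillaris, averaged 592 ± 36.1 over the WT and 592 ± 83.0 over the Oa1-/- arrays, with a log2 change of −0.0089 with a 95% interval from −0.30 to 0.28.

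Endothelial receptors gave 5 positive and 1 negative change of 6, with a median log2 change of 0.11. Ramp2, the subunit that makes the calcitonin receptor-like receptor a receptor for adrenomedullin, had WT signals of 776, 884 and 842 and Oa1-/- signals of 943, 900 and 910. The groups did not overlap, although the highest WT and lowest Oa1-/- values were close. The log2 change was 0.14 (SE 0.09, unadjusted p = 0.182, adjusted p = 0.985 in limma). Robo4, the roundabout receptor of endothelium, had WT signals of 117, 182 and 135 and Oa1-/- signals of 141, 181 and 195, a log2 change of 0.24 (SE 0.21), and the groups overlapped.

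Neither angiopoietin receptor passed the threshold. Tek, the Tie2 receptor, had WT signals of 444, 428 and 341 and Oa1-/- signals of 440, 401 and 533, a log2 change of 0.17 (95% interval −0.18 to 0.53). Tie1, its partner receptor, read 99.1 ± 17.1 and 104 ± 23.0 (SD, n = 3), a log2 change of 0.05. Ptprb, the phosphatase VE-PTP that acts on Tek, had a log2 change of 0.09 on its brightest probe set, and 100 in WT against 98.1 in Oa1-/- on another. Eng, the TGF-beta co-receptor endoglin, had a log2 change of −0.09 on its brightest probe set and 0.07 on the other, so its probe sets differed in sign.

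Of the secreted and matrix genes, Vwf had the largest difference. Vwf, the von Willebrand factor of endothelium and platelets, had WT signals of 313, 318 and 218 and Oa1-/- signals of 218, 277 and 180. The groups overlapped, since WT replicate 3 read like Oa1-/- replicate 1 and below Oa1-/- replicate 2, and the log2 change was −0.31 (SE 0.21, unadjusted p = 0.172, adjusted p = 0.985 in limma). Egfl7, a secreted factor of sprouting endothelium, had WT signals of 746, 1061 and 643 and Oa1-/- signals of 811, 961 and 861, a log2 change of 0.13 (SE 0.18), and its 3 other probe sets were also positive, at 0.11 to 0.20. Mmrn2, the matrix protein multimerin 2, read 641 ± 205 and 620 ± 187 (SD, n = 3) on its brightest probe set. Of its 3 other probe sets, 1 had a log2 change of 0.31, another 0.06 and the third −0.0057.

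Endothelial transcription factors gave 5 negative and 2 positive changes of 7, with a median log2 change of −0.04. Tal1, a basic helix-loop-helix factor of blood and endothelial progenitors, had WT signals of 224, 110 and 95.7 and Oa1-/- signals of 93.6, 128 and 93.9. The WT mean rested on replicate 1, and the log2 change of −0.32 (SE 0.31) was 0.02 without it. That array is also the one with the highest summed erythroid signal, and the part of blood cells in the Tal1 value was not tested. Sox18, which with Sox17 directs vessel development, read 253 ± 56.3 and 208 ± 41.2 (SD, n = 3), a log2 change of −0.25, and Sox17 one of 0.14. Of the ETS factors, Fli1 had a log2 change of −0.15, Erg −0.03 and Ets1 −0.04. Ets1 had WT signals of 964, 1328 and 751 and Oa1-/- signals of 910, 1008 and 966, with the 3 Oa1-/- values inside the WT range. The next brightest gave 0.06. Lyl1, a relative of Tal1, had a log2 change of 0.08. Fli1, Ets1, Tal1 and Lyl1 are also expressed by blood cells.

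Of the 6 genes printed above for an ETS match, 5 had a positive and 1 a negative change, beside 18 and 13 of all 31 members. Of all probe sets kept, 47.4% were positive. Start sites were searched for only 15 of the 31, so the 31 include genes that could not show a match. Their log2 changes were 0.08 for Emcn, 0.24 for Robo4, 0.13 for Egfl7, −0.03 for Erg, 0.08 for Lyl1 and 0.10 for Apln. None passed the threshold in limma, and a shift of the 6 together was not tested.

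**Figure D2:**
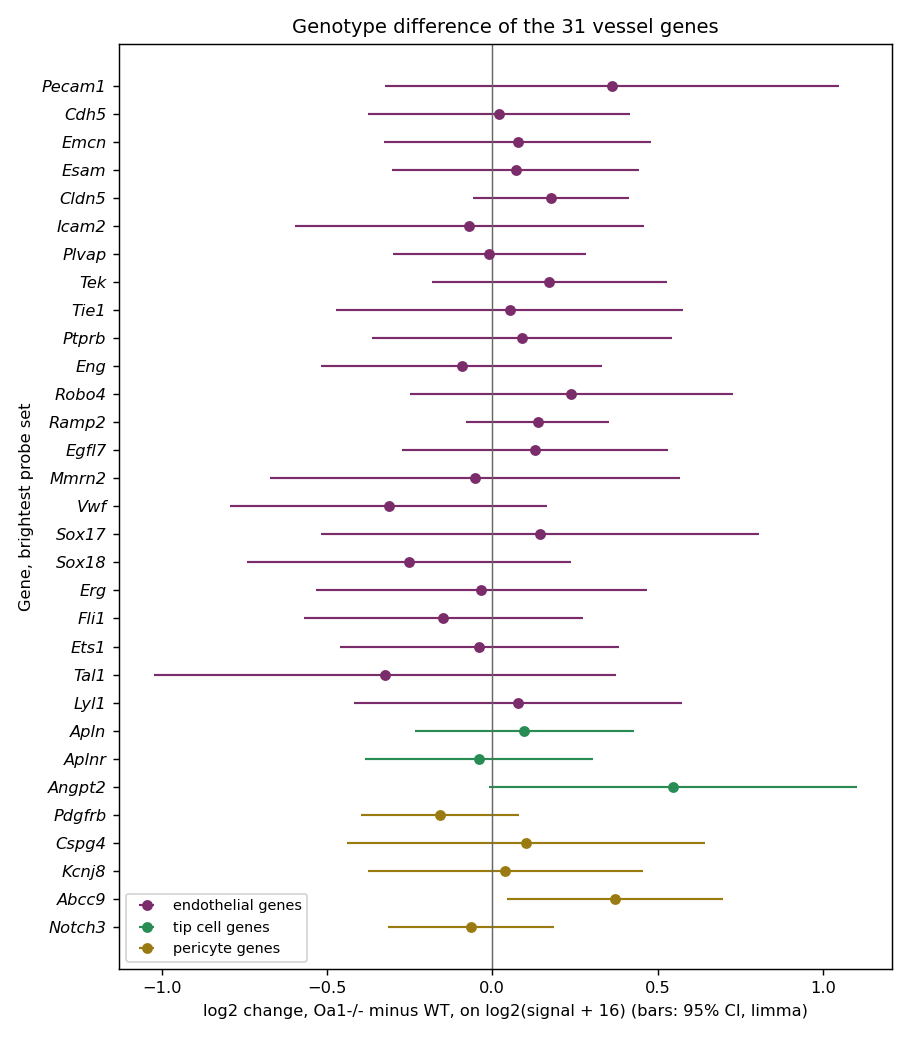
log2 change, Oa1-/- minus WT on log2(signal + 16), of the 31 genes with its 95% confidence interval in limma, for endothelial, tip cell and pericyte genes. The interval of Abcc9 runs from 0.04 to 0.70 and is the only one that excludes 0, and that of Angpt2 runs from −0.01 to 1.10.

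Of the 3 sprouting genes, 2 had a positive and 1 a negative change, with overlapping intervals. Angpt2, angiopoietin 2, which tip cells release to loosen vessels through Tek, had WT signals of 110, 218 and 168 and Oa1-/- signals of 203, 273 and 250. WT replicate 2 lay above the lowest Oa1-/- array, so the groups overlapped. Oa1-/- exceeded WT by 0.55 in log2 (SE 0.24), or 1.46-fold (limma, unadjusted p = 0.0535, adjusted p = 0.985). The change ran from 0.31 without WT replicate 1 to 0.75 without WT replicate 2, and remained positive in each of the 17 alternatives in which it had a value. A second Angpt2 probe set went the other way, with 10.4 in WT and 4.14 in Oa1-/- (log2 change −0.37), and its groups did not overlap. It lay below the highest bacterial controls and did not pass the filter, so its sign carries no information.

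The apelin pair showed small differences. Apln, the tip cell ligand apelin, had WT signals of 262, 312 and 283 and Oa1-/- signals of 275, 344 and 304, a log2 change of 0.10 (95% interval −0.23 to 0.43), with overlapping groups. Aplnr, its receptor, had WT signals of 4127, 4467 and 2872 and Oa1-/- signals of 3687, 3681 and 3590. The Oa1-/- arrays lay close together and inside the WT range, and the log2 change was −0.04 (SE 0.15). Its second probe set gave −0.01. Without WT replicate 3 the log2 change of Aplnr was −0.23.

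Of the 5 pericyte genes, 3 had a positive and 2 a negative change, with overlapping intervals. Abcc9, the sulfonylurea receptor that forms the pericyte potassium channel with Kcnj8, had WT signals of 635, 692 and 508 and Oa1-/- signals of 773, 890 and 712. All 3 Oa1-/- arrays lay above all 3 WT arrays. Oa1-/- exceeded WT by 0.37 in log2 (SE 0.14, 95% interval 0.04 to 0.70), or 1.29-fold (limma, unadjusted p = 0.0309, adjusted p = 0.985). The brightest Abcc9 probe set is one that can be shared between transcripts (suffix _s_at). The other probe sets also had positive changes, 0.26 and 0.13, but their groups overlapped and their unadjusted p was 0.324 and 0.671. Without WT replicate 3 the change of the brightest one was 0.25.

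Kcnj8, the pore subunit of the same channel, had WT signals of 201, 283 and 201 and Oa1-/- signals of 262, 230 and 208, a log2 change of 0.04 (95% interval −0.38 to 0.46). The groups overlapped, the interval contains the change of Abcc9, and the difference between these genes was not tested. Abcc9 and Kcnj8 lie next to each other on chromosome 6, and the 250 bases before each start are printed because the genes encode partner subunits. None of the 4 kinds of motif was found before Abcc9, and before Kcnj8 the capitals mark the E-box CAGATG on the opposite strand:
Kcnj8, chr6:142571615-142571864 (minus strand, GRCm38.p6): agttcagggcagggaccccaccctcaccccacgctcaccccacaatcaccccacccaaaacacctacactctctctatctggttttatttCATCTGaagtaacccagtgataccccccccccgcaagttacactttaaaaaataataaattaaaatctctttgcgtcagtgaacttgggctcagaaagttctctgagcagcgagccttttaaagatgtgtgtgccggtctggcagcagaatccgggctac
Abcc9, chr6:142702275-142702524 (minus strand, GRCm38.p6): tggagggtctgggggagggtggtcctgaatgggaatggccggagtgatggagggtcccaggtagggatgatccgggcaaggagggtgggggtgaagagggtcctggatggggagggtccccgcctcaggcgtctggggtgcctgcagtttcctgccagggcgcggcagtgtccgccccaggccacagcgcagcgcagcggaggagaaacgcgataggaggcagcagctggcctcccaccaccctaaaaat

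Pdgfrb, the receptor that recruits pericytes and is also made by mesenchyme, had WT signals of 2370, 2118 and 1953 and Oa1-/- signals of 1856, 1787 and 2121, a log2 change of −0.16 (SE 0.10), and its second probe set gave −0.21. The groups overlapped on both. Notch3, the Notch receptor of mural cells, read 1490 ± 129 and 1425 ± 151 (SD, n = 3), a log2 change of −0.06. Cspg4, the NG2 proteoglycan, read 201 ± 67.9 and 209 ± 7.09, a log2 change of 0.10, and its second probe set gave 0.12. None of the 5 passed the threshold.

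**Figure D3:**
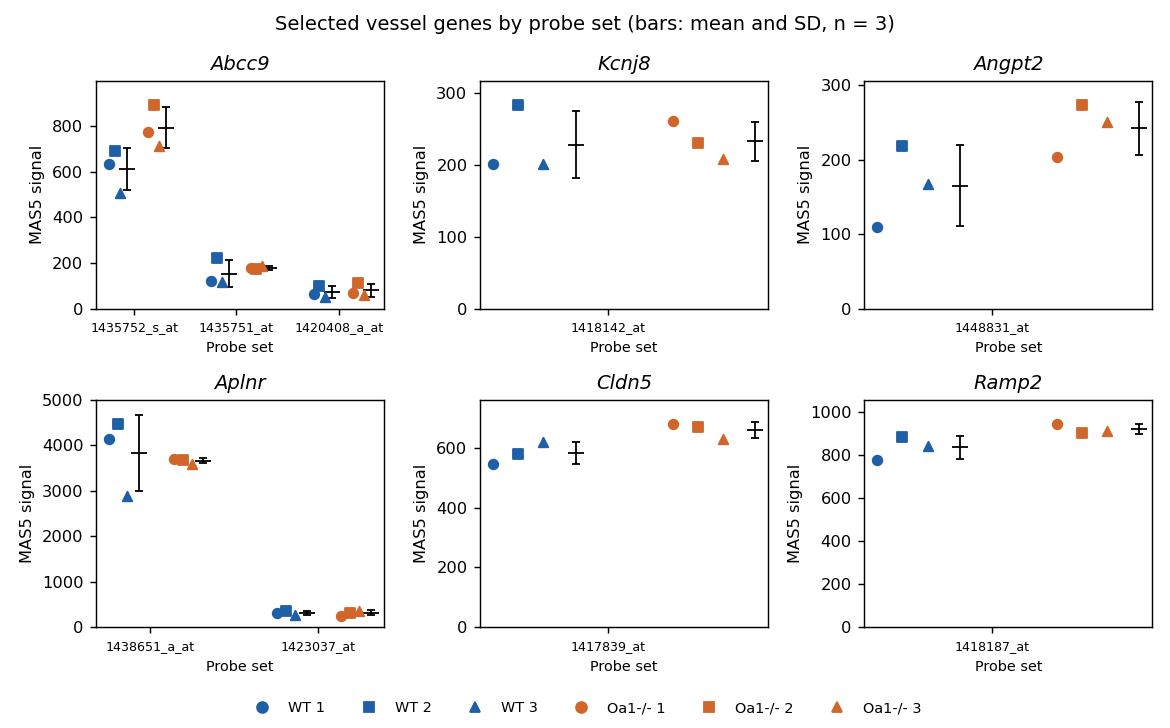
MAS5 signal of each probe set kept for Abcc9, Kcnj8, Angpt2, Aplnr, Cldn5 and Ramp2 on 3 WT (blue) and 3 Oa1-/- (orange) arrays, with the mean and SD of each genotype. The genotypes separate for Cldn5, Ramp2 and the brightest Abcc9 probe set, and overlap for the other probe sets shown.

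Litters of one genotype differed from each other in these genes. WT replicate 3 read low: 27 of the 31 genes lay below their own mean over the 6 arrays there, against 51.0% of all probe sets kept, with a median deviation of −0.25 in log2 units. It was the lowest array for 15 members, which is 48.4%, while it was the lowest for 19.2% of all probe sets. WT replicate 2 read high, with a median deviation of 0.20 and the highest value for 13 members, 41.9% against 12.6% of all probe sets. WT replicate 1 was the lowest array for 7 members and the highest for 6, while 19.4% and 20.2% of all probe sets were lowest and highest there. WT replicate 3 was the highest for 0 members and 19.7% of all probe sets, and Oa1-/- replicate 3 for 4 members and 19% of all. The Oa1-/- arrays had median deviations of −0.04, 0.11 and 0.02 and lay between those WT arrays. After median centring Oa1-/- replicate 1 was at 0.20 and WT replicate 2 at 0.13. The medians of all probe sets kept were then 0.22 and −0.06 on these arrays, so the higher value on Oa1-/- replicate 1 is shared by the whole array. On WT replicate 3, 27 members lay below their mean after quantile normalization and 24 after median centring, against 48.2% and 39.0% of all probe sets. It was then the lowest array for 12 and for 8 members, and after median centring Oa1-/- replicate 3 was the lowest for 12. On Oa1-/- replicate 3, 72.8% of all probe sets lay below their mean after median centring. Their median deviation there was −0.131, and that of the members −0.135.

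The low reading on WT replicate 3 did not touch every gene alike. Sox17, Erg and Icam2 were 1.73-fold, 1.72-fold and 1.69-fold higher on the average of WT replicates 1 and 2 than on replicate 3, and Emcn, Aplnr and Cdh5 1.55-fold, 1.49-fold and 1.41-fold. Cldn5, Ramp2, Eng, Lyl1, Angpt2 and Cspg4 were not lower there, with ratios of 0.910, 0.984, 0.898, 0.819, 0.935 and 0.932, and Apln was at 1.01. These arrays were set against each other after their values were seen, so the ratios are a description and were not tested. On the same array, 25 of 31 other endothelial genes lay below their mean (median deviation −0.17), as did 11 of 17 other mural genes (−0.10) and 7 of 8 erythroid genes (−0.61). Lists of other sprouting, arterial and venous, and lymphatic genes were less low: 9 of 15 (−0.05), 4 of 8 (0.002) and 2 of 5 (0.07). The arterial and venous list includes Nr2f2 and the lymphatic list Prox1, which other eye tissues also express. The part of other tissues in these medians was not tested, so they do not show that such vessels read differently. The summed erythroid signal was 5652 there, the lowest of the 6. Macrophage genes had a median deviation of −0.08, periocular mesenchyme genes one of 0.13 and corneal epithelial genes one of 0.39. The part of the Y-linked, Gapdh and erythroid signals of this array in the vessel gene values was not tested.

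**Figure D4:**
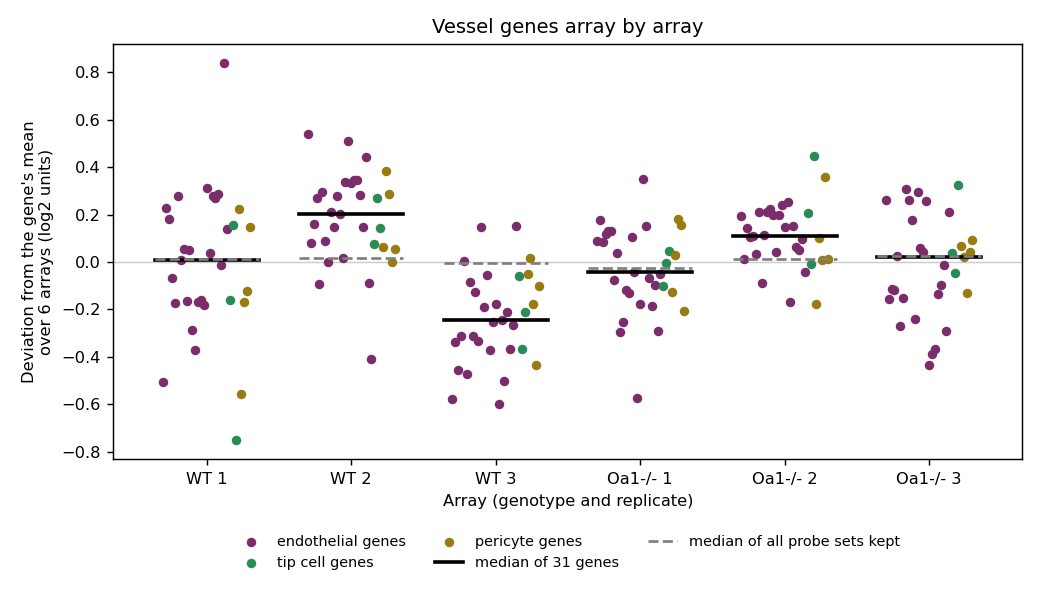
Deviation of each of the 31 genes from its own mean over the 6 arrays (log2 units), array by array, with the median of the 31 genes (black line) and of all probe sets kept (dashed line). The median is −0.25 on WT replicate 3 and 0.20 on WT replicate 2, while the medians of all probe sets kept stay between −0.03 and 0.03.

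The median genotype difference changed sign with the WT arrays used. Without WT replicate 3 the median log2 change was −0.07 for endothelial and −0.04 for pericyte genes, and 20 members were negative. The groups then did not overlap for 10 members: Aplnr, Emcn, Erg, Fli1, Icam2, Sox18 and Vwf lower, and Abcc9, Cldn5 and Ramp2 higher, where 21.8% of all probe sets did not overlap. Without WT replicate 2 the medians were 0.17 and 0.19, and the groups did not overlap for 9 members, all higher. Of all probe sets, 19.2% did not overlap then, counting higher and lower together. Within the WT group the median SD of a member was 0.29 in log2 units and within Oa1-/- it was 0.16, and the WT SD was the larger for 23 of 31 members against 49.2% of all probe sets. The difference in spread was not tested.

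Other vessel genes were read from lists of their own. The counts of these lists, and of the lists of other cells, can be set beside all probe sets kept. Of those probe sets, 4.11% had an unadjusted p below 0.05 in limma (1.64% higher and 2.46% lower). Of 33 further endothelial genes, all 33 were on the array and 31 passed the filter, with 1 at an unadjusted p below 0.05, which was lower, and a median log2 change of 0.01. That gene was Cd34, a sialomucin of endothelium and progenitor cells, whose mean was 1252 ± 148 on WT and 1016 ± 68.1 on Oa1-/- arrays (SD, n = 3 each), with a log2 change of −0.29 (adjusted p = 0.985 in limma). Cd34 was highest on WT replicate 3, where none of the 31 members was highest. Kdr, the main VEGF receptor, was also highest on WT replicate 3 and had a log2 change of −0.07. Flt1, another VEGF receptor, had one of 0.08. Of 18 further sprouting genes, 15 passed the filter and 0 had an unadjusted p below 0.05. Their largest change was that of Plaur, the urokinase receptor, at 0.38, and Dll4, the Notch ligand of tip cells, had 0.11. Of 20 further mural genes, 17 passed the filter, 0 had an unadjusted p below 0.05 and the median log2 change was 0.08. The largest was Ndufa4l2, a mitochondrial protein of pericytes, which had WT signals of 349, 500 and 678 and Oa1-/- signals of 817, 635 and 666 (log2 change 0.50, unadjusted p = 0.0531 in limma). Rgs5, a pericyte regulator of G protein signalling, had WT signals of 963, 1809 and 840 and Oa1-/- signals of 1432, 1856 and 1214, a log2 change of 0.37 with overlapping groups.

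Among arterial and venous genes 0 of 8 kept had an unadjusted p below 0.05, and the largest log2 change was −0.34 for Nr2f2, a venous transcription factor that other eye tissues also express. Of 5 lymphatic genes kept, 2 had an unadjusted p below 0.05, both lower, against 2.46% of all probe sets kept. Prox1 had WT signals of 506, 486 and 409 and Oa1-/- signals of 386, 297 and 231 (log2 change −0.61, adjusted p = 0.985 in limma), with no overlap. Prox1 is also a gene of lens fibres and horizontal cells. Vegfc, the growth factor for lymphatic vessels, had a log2 change of −0.31, also with no overlap.

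Markers of other cells that share genes with the list or surround the vessels were read on the same arrays. Of 8 erythroid genes kept, 1 had an unadjusted p below 0.05, Alas2, the first enzyme of haem synthesis in red cells, with a log2 change of −0.42. Of 15 macrophage genes, 2 did, both lower: Laptm5 at −0.32 and Pf4 at −0.25. Of 6 platelet genes 0 did, and the largest change was −0.32 for Ppbp. The summed macrophage signal was 6575 to 7245 in WT and 6321 to 6756 in Oa1-/-, and the summed platelet signal 1091 to 1239 and 1018 to 1280. The 16 periocular mesenchyme genes had a median log2 change of −0.17. Of these, 5 had an unadjusted p below 0.05, all lower, against 2.46% of all probe sets kept. Among them were Fbln2, an extracellular matrix protein, at −0.40, Fap, a protease of fibroblasts, at −0.34, and the transcription factor Osr1 at −0.76. Their summed signal was 88699 to 107343 in WT and 92054 to 98171 in Oa1-/-. Pdgfrb, at −0.16, is also expressed in that tissue, and the part of mesenchyme in its value was not tested. Of the tissues of the pools, 8 neural retina genes included 2 with an unadjusted p below 0.05, both higher: Pax6 and Atoh7, each at 0.16. None of 7 pigment epithelium, 6 lens, 4 corneal epithelium and 6 skeletal muscle genes kept had one, and their median log2 changes were 0.04, 0.11, −0.13 and 0.28.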

How the data were processed

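The authors deposited linear MAS5 signal intensities for every probe set of each array, per the submitters' processing notes, which name no version. Per the labels' protocols, 12.5 micrograms of total RNA were used to prepare the labelled cRNA. Probe sets were named by the platform annotation, and only those with 1 symbol (34945) were used for genes. Computed values were log2(signal + 16). Control probe sets were left out, and probe sets whose mean signal lay above the 40th percentile were kept (27029). limma 3.58.1 in R 4.3.3 (lmFit, eBayes with an intensity trend, no covariate) gave two-sided p-values with Benjamini-Hochberg adjustment over all probe sets kept. The scale understates changes of dim genes. The number of arrays, 3 per genotype, limits the precision. The code was tested on simulated data.

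The members and lists were chosen with earlier results of these data known. Values on every array were given for members with an unadjusted p below 0.05, with groups that did not overlap, with the largest change or the brightest probe set of their role, and for some further members chosen after their values were seen. Outside the members, up to 3 genes of a list with the smallest unadjusted p below 0.05, or else the largest change, were named; Kdr, Flt1, Dll4 and Rgs5 were added after their values were seen. Alternatives were other pseudocounts, filters, scalings, variance settings, probe set choices, the replicate number as a block and leaving out arrays.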

Additional observations from a re-analysis of the deposited data

How the results depend on the processing

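No member passed an adjusted p below 0.05 in limma under any setting tried, and the signs of 31 small changes were the less stable part: of 538 values of single members over 18 settings, 486 kept their sign and 52 did not, while 11 members kept it throughout. Leaving out 1 array at a time gave 0 to 4 members at an unadjusted p below 0.05 (3.16% to 4.55% of all probe sets), 3 to 10 members whose groups did not overlap (17.8% to 21.8% of all), and medians of −0.07 to 0.17 (endothelial), 0.02 to 0.17 (sprouting), −0.039 to 0.19 (pericyte) and −0.07 to 0.12 (endothelial minus pericyte), with 0 probe sets past the threshold each time. With array weights 2 probe sets passed the threshold, 5 members had an unadjusted p below 0.05 (11.4% of all probe sets did) and the pericyte median was −0.087, the endothelial one −0.018, and 19 of 31 members were negative. Median centring gave 2 probe sets past the threshold and 2 members at an unadjusted p below 0.05 (2.84% of all). The groups then did not overlap for 1 member (6.43% of all), Angpt2, which was higher, while Abcc9, Cldn5 and Ramp2 overlapped. The 70th percentile filter left 16 members and a pericyte median of −0.065. Quantile normalization gave 2 members at an unadjusted p below 0.05 (4.46% of all), and probe sets of 1 transcript group gave 0 (3.92% of all). After quantile normalization 4 members did not overlap (10.5% of all): Abcc9, Angpt2, Cldn5 and Ramp2, all higher. With Aplnr counted as endothelial the sprouting median was 0.32. Without both WT replicate 3 and Oa1-/- replicate 1, chosen after seeing the data, 4 members had an unadjusted p below 0.05 (5.62% of all), 13 did not overlap (35% of all probe sets) and the pericyte median was −0.046. The cause was not tested.

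Signs turned with array weights for Pecam1 (−0.0087), Cdh5 (−0.054), Esam (−0.066), Plvap (0.073), Egfl7 (−0.0050), Sox17 (−0.018), Cspg4 (−0.087) and Kcnj8 (−0.15), with all probe sets of a gene averaged for Mmrn2 (0.078) and Ets1 (0.0098), with 1 transcript group for Ets1 (0.059), and for Plvap with quantile normalization (0.021) and median centring (0.022). They turned without both arrays for Cdh5 (−0.23), Emcn (−0.16), Esam (−0.11), Mmrn2 (0.084), Sox17 (−0.26) and Kcnj8 (−0.12). Leaving out 1 array moved 19 members across 0: Cdh5 −0.14 to 0.14, Emcn −0.13 to 0.19, Esam −0.067 to 0.22, Icam2 −0.32 to 0.061, Plvap −0.12 to 0.064, Tie1 −0.065 to 0.21, Ptprb −0.056 to 0.24, Eng −0.26 to 0.023, Egfl7 −0.023 to 0.33, Mmrn2 −0.19 to 0.22, Sox17 −0.12 to 0.37, Erg −0.29 to 0.10, Ets1 −0.23 to 0.17, Tal1 −0.54 to 0.016, Lyl1 −0.11 to 0.17, Aplnr −0.23 to 0.085, Cspg4 −0.15 to 0.32, Kcnj8 −0.041 to 0.19 and Notch3 −0.13 to 0.022.

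With the replicate number as a block, 2 members (Abcc9 and Angpt2) had an unadjusted p below 0.05, against 3.27% of all probe sets, and no member passed the threshold. Deviations of same-numbered arrays from the mean of their genotype correlated at −0.289, 0.156 and −0.231, and those of differently numbered arrays at −0.296 to 0.363. Centring each genotype on its own mean ties these values to each other. They therefore cannot decide whether same-numbered arrays share more than a number.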
